A study of Mus musculus with 6 samples.

Results

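Monocytes that carry transcripts of Ace, Treml4 and Adgre4 were followed through single-cell RNA libraries of 6 mice bearing ovarian tumors. A cell counted as one of these Ace monocytes when it had at least 250 detected genes and at most 5% mitochondrial transcripts, at least 2 transcripts (unique molecular identifiers, UMIs) of Ace, Treml4 and Adgre4 together, at most 2 of Ly6c2, at most 2 of the C1q genes C1qa, C1qb and C1qc, at most 4 of Spp1 and Gpnmb, none of Cd3d, Cd3e, Cd3g or Cd79a, and at most 1 of Xcr1 and Clec9a. This gate held 3154 cells of the 51633 that passed the filters on genes and mitochondrial transcripts, or 6.11%. Since the gate reads the expression values themselves, the levels of its own genes are given as a description.

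The mice were female C57BL/6 animals of 6 to 8 weeks, described in the study as carrying orthotopic tumors of KPCA, a mouse line of ovarian cancer whose homologous recombination is intact. The labels, however, give the tissue as lymph node, and the text of the series mentions young and aged mice, so the sources differ on where the cells came from. Each treatment had 1 mouse and 1 library. From day 9, 2-Deoxy-D-glucose (2DG), a sugar analog that blocks glycolysis and N-glycan synthesis, was injected every 2 days at 500 mg/kg. 2F-Peracetyl-Fucose (2FF), an inhibitor of fucosylation, was given by gavage every 2 days, and the tumor cells of those mice had been cultured with it at 300 µM for 3 days. Anti-PD-L1 antibody (aPDL1) was injected at 5 mg/kg 2 times a week for 3 weeks, alone or with 2DG or 2FF, and the control mouse received solvent and rat IgG. All mice were killed on day 30. The control library is the denominator of 3 comparisons and the aPDL1 library of 2, so these comparisons share their reference cells. With 1 mouse per treatment no difference between treatments was tested, and the intervals given below cover counting error only.

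Non-classical monocytes are blood monocytes that crawl along the wall of small vessels and survey the endothelium. In mice they carry little Ly6C and much of the fractalkine receptor CX3CR1, they arise from Ly6C-high classical monocytes, and the nuclear receptor Nr4a1 is required for their production. Ace encodes the angiotensin-converting enzyme, a peptidase of the cell surface, Treml4 a receptor of the TREM family, and Adgre4 an adhesion G protein-coupled receptor of myeloid cells.

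The 3 genes of the gate lie on GRCm38 (mm10) at chr11:105967945-105989964 (Ace), chr17:48264295-48275360 (Treml4) and chr17:55749984-55853662 (Adgre4), all protein-coding and on the + strand. The 60 bases before the first RefSeq start site of each gene (GRCm38.p6, + strand, 5′ to 3′) are shown because these genes choose the cells, and capitals mark the letters TTGCNNAA on either strand, a core pattern of C/EBP factors.
Ace, chr11:105967888-105967947: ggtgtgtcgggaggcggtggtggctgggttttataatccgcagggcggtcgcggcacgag
Treml4, chr17:48264235-48264294: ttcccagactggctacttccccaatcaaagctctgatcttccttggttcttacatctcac
Adgre4, chr17:55749924-55749983: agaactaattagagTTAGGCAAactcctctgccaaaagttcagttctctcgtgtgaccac
Among these 3 stretches, the pattern was found only before Adgre4. In the RefSeq windows of 250 bases before to 50 after a start, 10.8% of 32851 windows hold it. Of the 26 windows of the gate genes and the 24 further non-classical markers described below, 3 held it. They belong to 3 of the 20 genes with a window (Adgre4, Ear2 and Pparg). AAAGGTCA, a pattern of NR4A receptors, was in 1.51% of all windows and in none of those of the 20 genes, and GAGGAAGT, a pattern of PU.1, in 3.2% of all windows and in that of 1 gene, Adgre4. A match is a run of letters and not evidence of binding.

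The control library held 303 Ace monocytes, the 2DG library 571, the 2FF library 553, the aPDL1 library 689, the 2DG + aPDL1 library 588 and the 2FF + aPDL1 library 450. Their median UMI counts were 9146, 6426, 6120, 6133, 5938.5 and 7557.5 in that order, which is used throughout, so that the control cells were the deepest. No barcode of an Ace monocyte occurred in more than 1 library, while 12 to 27 barcodes of cells that passed the filters were shared by any 2 libraries. Starting from 5611 cells with at least 2 UMIs of the trio, the limit on Ly6c2 left 4524, that on C1q genes 3804, that on Spp1 and Gpnmb 3563, and the lymphocyte and Xcr1-Clec9a limits 3154.

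The control library stood apart before any comparison of these cells. Cells with at least 20 UMIs of the neutrophil genes S100a8 and S100a9 and 1 of Csf3r made up 29.7% of it, against 1.80% to 3.46% of the other libraries. Among the Ace monocytes themselves, 70 of the 303 control cells (23.1%) held more than 20 UMIs of S100a8 and S100a9, against 2.32% to 5.61% elsewhere. A stricter gate was therefore used beside the first. It asks for at least 1 UMI of the monocyte receptors Csf1r or Cx3cr1, allows at most 20 UMIs of S100a8 and S100a9, and allows none of Ncr1, Klrb1c, Siglech, Cdh5, Krt8 or Krt18. It kept 2697 cells, 206, 508, 456, 617, 512 and 398 by library.

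The cells that the stricter gate dropped also held more of neutrophil transcripts that this gate does not read. In the control library Cxcr2, the neutrophil chemokine receptor, was at 400.9 CPM (UMIs of a gene scaled to the same total in every group of cells) in the dropped cells and 10.0 in the kept ones, and Csf3r, the receptor of the granulocyte growth factor, at 843.6 and 96.9. Elsewhere the dropped cells held 61.5 to 271.6 CPM of Cxcr2 and the kept cells 2.52 to 13.4. Treml4 was higher in the dropped cells of every library, from 218.1 to 437.3 CPM against 115.9 to 233 in the kept cells, whereas Ace was lower, from 106.7 to 274.3 CPM against 228.1 to 370.7. The gate of 3154 cells thus takes in some cells with neutrophil transcripts, most of all in the control mouse, and for the gene lists and counts of genes compared with the control the values with the stricter gate are given as well.

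In the 3154 cells Ace was at 191.6, 334.0, 232.3, 362.1, 355.9 and 274.4 CPM, Treml4 at 175.0, 218.0, 220.7, 206.2, 244.2 and 210.7 CPM, and Adgre4 at 259.4, 606.0, 405.8, 477.1, 499.3 and 453.9 CPM. The control was lowest for each of the 3 genes. In neutrophil-marked cells, Treml4 was at 27.3, 120.8, 96.1, 75.8, 140.6 and 81.2 CPM, and Ace at 6.735, 13.6, 36.4, 37.9, 51.7 and 21.8 CPM. Those cells were not chosen to lack the 3 genes, so some of the 3154 cells can be among them. How well Treml4 alone separates the monocytes from neutrophils was therefore not tested.

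T cells, which should lack the 3 genes, give the level of Ace that free RNA in the droplets can produce. For Treml4 and Adgre4 this level is not given here. Ace was detected in 0.756% to 1.45% of T cells, at 1.28 to 4.63 CPM, with median depths of 5873 to 7666 UMIs per cell. In the Ace monocytes, at median depths of 5938.5 to 9146 UMIs, it was detected in 62.7% to 74.3% of cells.

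The 3 genes were unevenly shared among the members. All 3 were detected in 37.3% of the 3154 cells, and the pair of Ace and Adgre4 without Treml4 in 22.5%. In the control library 26.1% of members had all 3 and 37.6% only 1, whereas in the other libraries 34% to 42.2% had all 3 and 20.1% to 23.5% only 1. Just outside the limit of the gate, cells of the 2DG library with 1 UMI of the trio and the same other limits (160 cells) held Pparg in 3.13%, Spn in 9.38% and Eno3 in 4.38%. Just inside it, at 2 UMIs (101 cells), these shares were 18.8%, 20.8% and 10.9%, and at 5 or more UMIs (350 cells) 53.4%, 65.1% and 60.6%, at similar depth (median 6429, 6319 and 6466 UMIs). In each of the other libraries the 3 shares were also higher at 5 or more UMIs than at 1, and in the control library those of Pparg were 42.4% and 8.24%. The 2DG share of Pparg at 1 UMI was the lowest, against 6.94% to 11.2% in the others. From 1 to 2 UMIs the shares also rose in the others, except that of Spn in the control (13.5% and 11.8%). Eno3 in the control rose little, from 4.87% to 5.38%.

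To measure each of the 3 genes in cells it did not choose, it was left out of the gate in turn and compared between cells chosen by the other 2 alone and classical monocytes gated without it. Classical monocytes here had at least 3 UMIs of Ly6c2, 1 of Ccr2 and 3 of Lyz2, none of the trio (or, here, of the other 2 genes), at most 1 of Siglech and at most 20 of S100a8 and S100a9, and passed the lineage limits. The reference cells were thus chosen to lack the other 2 genes, and the differences are those between opposite ends of that choice. Counts were summed per library and compared within libraries by edgeR's quasi-likelihood test, with Benjamini-Hochberg adjustment over all genes, and the 6 mice are the replicates whatever their treatment.

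Ace was at 176.4, 333.7, 216, 352, 355.2 and 280.5 CPM in cells chosen by Treml4 and Adgre4, and at 7.02, 20.2, 16.8, 25.8, 16.9 and 18.1 CPM in classical monocytes. The groups did not overlap, and the log2 difference was 4.04 (SE 0.114, edgeR adjusted p = 3.298e-10, higher in 6 of 6 libraries). Treml4 in cells chosen by Ace and Adgre4 exceeded classical monocytes by a log2 difference of 3.26 (SE 0.107, edgeR adjusted p = 1.448e-09), from 97.5 CPM in the control library to 217.2 in the 2DG + aPDL1 library. Adgre4 in cells chosen by Ace and Treml4 did so by 3.58 (SE 0.122, edgeR adjusted p = 1.107e-09), from 242.4 CPM in the control to 636.5 in the 2DG library. In each of the 3 pairs the control library had the lowest level in both cell groups.

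**Figure D1:**
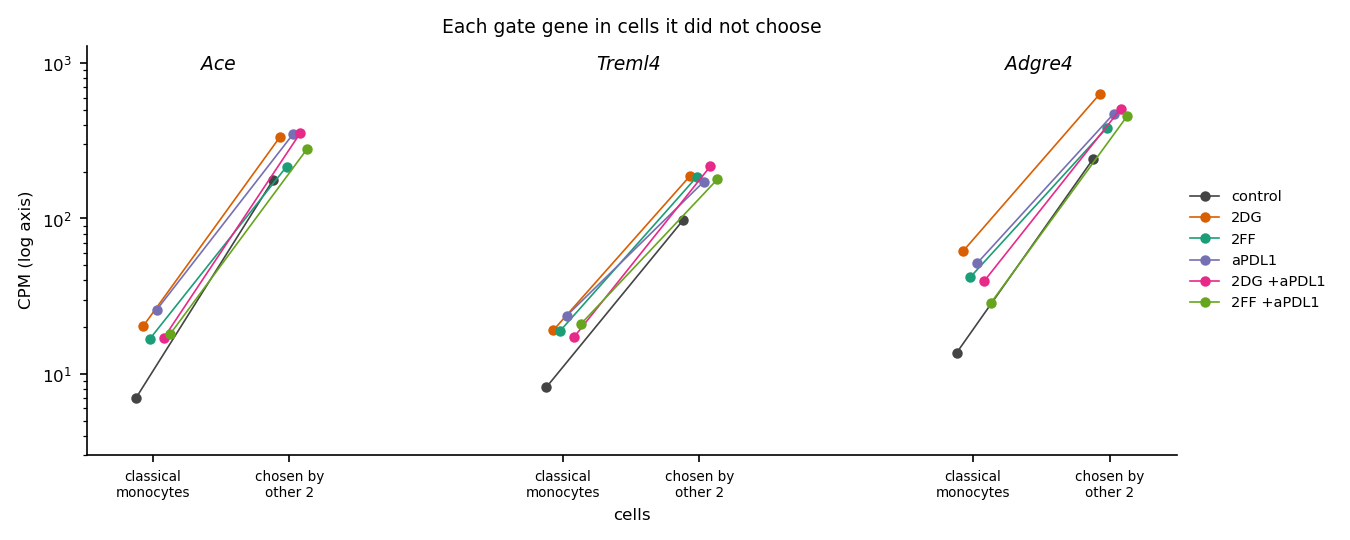
CPM (log axis) of Ace, Treml4 and Adgre4 in classical monocytes and in cells chosen by the other 2 genes, with 1 line per library. All 18 lines rise, and the control library holds the lowest point in every group.

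Among all genes, 9781 were tested between the Ace monocytes and the 1549 classical monocytes, with the genes of both gates left out. Of these 21.0% rose in Ace monocytes and 21.9% fell, so that 42.9% of genes passed in either direction. Without the library block 1415 rose and 1287 fell, in place of 2058 and 2139. The gates choose opposite ends of one axis, so genes that travel with their markers were in part chosen along with them.

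Further markers of non-classical monocytes were higher in the Ace monocytes. Of 24 such genes, 21 rose, with a median log2 difference of 2.28 over the 24, beside -0.01 over all genes tested. Pparg, the lipid-sensing nuclear receptor, was at 89.5, 209.8, 172.4, 176.9, 273.8 and 198.6 CPM in the Ace monocytes and at 3.13 to 13.3 CPM in the classical ones (log2 difference 5.14, SE 0.188, edgeR adjusted p = 6.642e-10). No library of one group reached the range of the other. In T cells Pparg was at 6.20 to 23.6 CPM.

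Most receptors and adhesion molecules by which these cells hold to vessels were higher as well. Cx3cr1, the fractalkine receptor, was at 92.5, 154.2, 100.7, 155.1, 130.9 and 93.7 CPM against 27.0, 63.8, 53.1, 79.7, 58.8 and 35.4 CPM in classical monocytes (log2 difference 1.22, SE 0.104, edgeR adjusted p = 8.889e-07). Itgal, the LFA-1 integrin chain that holds these cells to endothelium, was at 325.0, 471.5, 352.8, 547.5, 599.3 and 496.6 CPM against 116.7 to 176 CPM (log2 difference 1.66, SE 0.0808). Spn (CD43) had a log2 difference of 2.65 (SE 0.144) and S1pr5, the sphingosine-1-phosphate receptor through which they leave the marrow, one of 4.40 (SE 0.232). Of 14 adhesion and patrolling genes tested, 6 of which are also among the 24 markers, 11 rose, Pecam1 and Ceacam1 among them, and Itgam, Icam1 and Icam2 did not pass. Itgam, an integrin chain of many myeloid cells, was at -0.14, and with the stricter gate it fell by 0.21 (edgeR adjusted p = 0.01485).

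Nr4a1 was at 367.3, 423.6, 436.7, 288.3, 543.7 and 595.1 CPM in the Ace monocytes and at 172.1, 153.5, 209.3, 110.1, 226.8 and 221.5 CPM in classical monocytes (log2 difference 1.28, SE 0.0725, edgeR adjusted p = 1.809e-08). The lowest level in Ace monocytes exceeded the highest in classical ones. Among the 21 transcription factors listed 9 rose and 4 fell. Hes1, a Notch target, rose with a log2 difference of 2.60, Pou2f2 with 1.81 and Klf2 with 0.77, while Maf (-1.61), Cebpa (-0.66) and Cebpd (-0.47) were among those that fell. Cebpb, at a difference of 0.07, did not pass.

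The largest rises among genes of at least 50 CPM began with Cd300e, an activating receptor of these monocytes. It was at 28.0, 64.9, 57.1, 51.6, 75.8 and 56.4 CPM, and classical monocytes held 3 UMIs of it in the 2DG library and none in the other 5, where 3 UMIs would be 0.940 to 2.18 CPM. Its fitted log2 difference of 7.67 therefore rests on almost no counts in the reference. Eno3, an enolase of muscle, was at 31.0, 150.8, 141.2, 99.5, 140.2 and 110.5 CPM against 0 to 2.69 CPM (log2 difference 6.06, SE 0.207).

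Fabp4, a fatty acid carrier, rose with a log2 difference of 5.82, Slc12a2, an ion cotransporter, with 5.46, Vegfc, a lymphatic growth factor, with 6.53 and Cd36, a scavenger receptor for lipids, with 4.42. Cd36 varied widely between mice, at 136.3, 136.7, 61.2, 279.1, 471.1 and 184.3 CPM. Together with Pparg and Fabp4 it belongs to a list of 13 tested genes of lipid handling, of which 9 rose and 2 (Lpl and Nceh1) fell. Ear2 (3.80), Adgrl3 (4.33), Setbp1 (3.86) and Tgfbr3 (5.45) were also among the 15 largest.

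The names of 4 genes in that group of 15 belong elsewhere or rest on 1 mouse. Retnlg (log2 difference 6.70), Cstdc4 (6.74) and G0s2 (5.17) are transcripts of neutrophils, and all 6 tested genes of the neutrophil list rose, with a median of 4.33. The classical gate limits S100a8 and S100a9 and the first gate does not. With the stricter gate 2 of 4 tested neutrophil genes rose, with a median of 0.89, and Retnlg and Cstdc4 no longer passed the filter on low counts. G0s2 remained higher at 3.41. Dach1 was at 334.5 CPM in the control and 12.6 to 19.9 CPM in the other 5 libraries, in T cells at 42.7 CPM and 0.652 to 5.66 CPM, and its difference of 4.87 became 3.25 without the control library and 3.43 with the stricter gate.

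**Figure D2:**
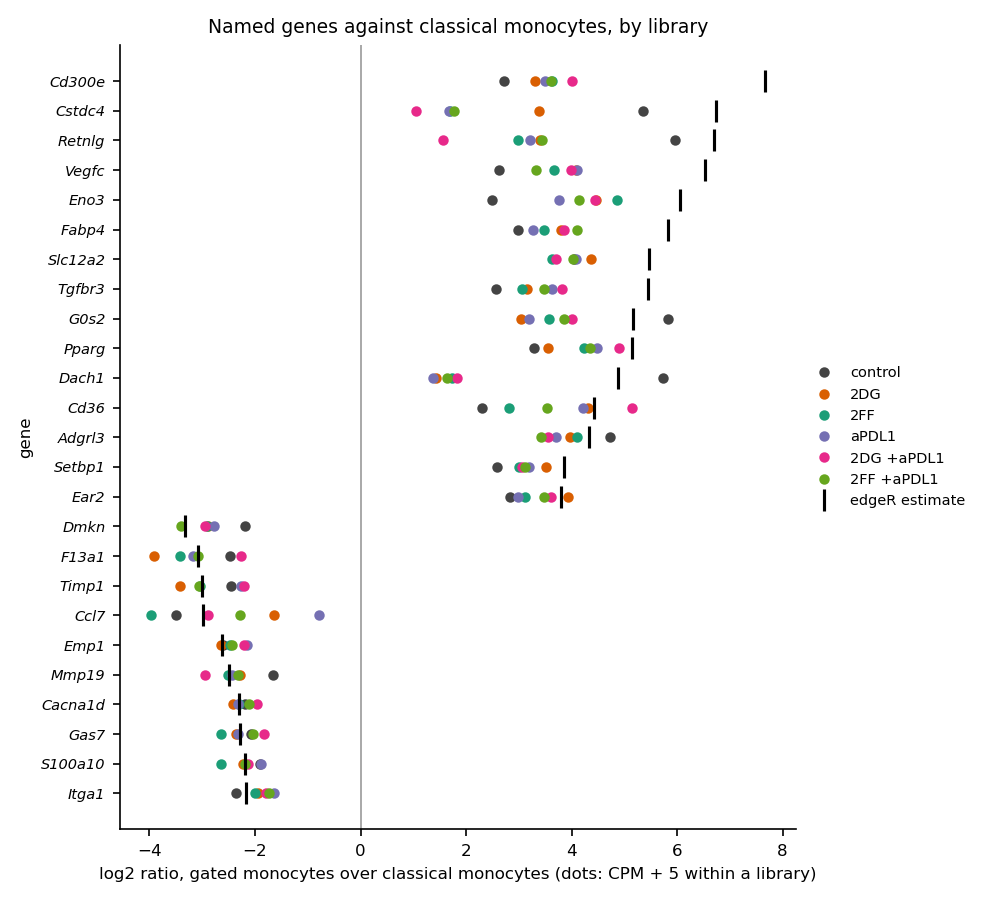
Log2 ratio of CPM + 5 in Ace monocytes over classical monocytes of the same library (dots, 1 per library) and the edgeR estimate (bars). Shown are the 15 genes with the largest rise and the 10 with the largest fall. For genes near 0 in classical monocytes adding 5 CPM shrinks the ratio, and the estimate can lie beyond the dots. Every dot lies on the side of its gene's estimate. Cstdc4, Retnlg, G0s2 and Dach1 are far higher in the control library. The control dots of G0s2 (5.83) and Dach1 (5.74) lie beyond their estimates (5.17 and 4.87).

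Classical monocyte genes fell. Of 12 tested, 10 fell, with a median log2 difference of -1.37, and Plac8 and Lyz1 did not pass. F13a1, coagulation factor XIII, was at 306.9, 55.0, 82.5, 136.1, 177.9 and 112.5 CPM against 877.4 to 1731 CPM (log2 difference -3.08, SE 0.175), without overlap. Dmkn (-3.32), Timp1 (-3.00), Ccl7 (-2.99) and Emp1 (-2.62) were the other largest falls, and Vcan, a matrix proteoglycan, fell by 2.04. Ccr2, which chose the classical cells, was still at 367.1 to 603.0 CPM in the Ace monocytes.

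Interferon-response genes were lower in the Ace monocytes than in the classical monocytes of the same mouse. Of 19 tested genes of the type I interferon response 17 fell, with a median log2 difference of -0.88, and Ifit3b and Rtp4 did not pass. Isg15, a ubiquitin-like modifier, was at 101.3, 91.2, 220.7, 80.0, 105.1 and 162.7 CPM against 182.2, 196.9, 298.7, 253.4, 528.2 and 493.4 CPM in classical monocytes (log2 difference -1.34, SE 0.189, edgeR adjusted p = 7.661e-05). Within each library the Ace monocytes were the lower, although the 2FF value exceeds the lowest classical ones. Irf7, the regulator of the response, fell by 0.88 (SE 0.0949).

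Of 17 genes that interferon-γ induces 11 fell and 3 rose, with a median of -0.42. The chemokines Cxcl9 (-1.18) and Cxcl10 (-1.48), which draw T cells, fell. Irf1 (0.70), Ciita (0.36) and Cd274 (0.53), the gene for PD-L1, were the 3 that rose. Over 17 settings of the fit, the first included, Irf1 and Cd274 were called in 16, all but the one without the library block, and Ciita in 9, with a value of -0.02 when at least 3 UMIs of the trio were asked for. Of 24 chemokine and cytokine genes 13 fell, among them the monocyte attractants Ccl2 (-1.87) and Ccl12 (-2.37), and 1 rose, Il1b at 1.03. Without the library block, the same fit called 11 of the 19 type I genes lower and 2 of the 17 interferon-γ genes.

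Of 9 MHC class II genes 6 rose and H2-DMa and Ctss fell. With the stricter gate 5 rose and 1 fell, H2-DMb2 (edgeR adjusted p = 0.3188) and Ctss (edgeR adjusted p = 0.06039) no longer passing, and without the library block 4 rose and 1 fell. H2-Ab1 was at 414.5, 1094, 1597, 1433, 874.1 and 1045 CPM against 199.0, 713.5, 550.1, 736.1, 856.2 and 390.3 CPM (log2 difference 0.94, SE 0.152, edgeR adjusted p = 0.0002532). The ranges overlap across libraries, and in the 2DG + aPDL1 library the pair were close. H2-Ab1 in T cells, which do not make it in mice, was at 117.8 to 264.8 CPM. All 3 tested markers of mature dendritic cells rose against classical monocytes too, with a median of 1.98. Of 6 tested markers of type 2 dendritic cells 1 rose (Dpp4, 1.54) and 3 fell, with a median of -0.35. The part of dendritic cells in the class II rise was not tested.

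Further lists held smaller counts. The survival gene Bcl2 was at 97.6, 221.8, 114.2, 158.3, 164.0 and 151.5 CPM against 18.2 to 32.2 CPM (log2 difference 2.51, SE 0.119), and 5 of 10 survival genes rose and 1 (Bax) fell. Bcl2a1a, Bcl2a1b and Bcl2a1d are near copies whose reads can be split between them, and their differences are uncertain. Fcgr4, an activating Fc receptor abundant in non-classical monocytes, rose (1.04, SE 0.101) while Fcgr1 (-1.43), Fcgr2b (-0.32) and Fcgr3 (-0.51) fell. Of 16 glycolysis genes 10 fell, by 0.30 to 0.87, and Eno3 rose, and without the library block 2 fell. Of 9 checkpoint ligands and related receptors 5 rose, led by Havcr2 (TIM-3) at 0.97, and 2 fell, Lgals9 (-1.08) and Vsir (-0.32). Of 13 genes of glycan synthesis, the process that 2DG and 2FF inhibit, 5 rose, St6gal1 (1.06), Fut4 (1.001), Mgat4b (0.58), St3gal4 (0.50) and Fut8 (0.47), and 4 fell.

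Against the 4184 macrophages with at least 6 UMIs of C1q genes, none of the trio and the same limits on Spp1 and Gpnmb, lymphocyte and Xcr1-Clec9a genes, 10909 genes were tested, of which 29.0% rose and 30.9% fell in the Ace monocytes (59.9% in either direction). With library size as the only scaling, 2465 rose and 4234 fell in place of 3167 and 3372, and the median of all genes was -0.17 in place of -0.04. Of the 24 further non-classical markers 23 rose, with a median of 3.01. Cx3cr1, at a log2 difference of 0.04, was the one that did not pass. It ranged from 74.3 to 340.5 CPM in the macrophages.

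All 11 tested macrophage markers fell, with a median log2 difference of -3.53. Mrc1, the mannose receptor, was at 15.1, 27.7, 22.9, 52.3, 45.2 and 39.3 CPM against 874.8 to 1408 CPM (log2 difference -5.03, SE 0.243). The scavenger and engulfment receptors Marco (-6.62), Cd163 (-5.47), Mertk (-4.27) and Axl (-2.93) fell as well. Ccl8, a monocyte chemoattractant, was at 0.737 to 10.4 CPM against 201.9 to 965.2 CPM (log2 difference -6.46), and in T cells at 0.957 to 9.61 CPM, so the Ace monocytes were in the range of cells that should lack it.

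All 9 MHC class II genes fell against macrophages, with a median of -1.61, and 8 of 9 tested cell-cycle genes fell, with a median of -2.06. H2-Ab1 was at 2423 to 5115 CPM in macrophages. Of the 19 type I interferon genes 7 rose and 5 fell against macrophages, with a median of 0.13.

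Between mice, the share of Ace monocytes among all cells was lowest in the control library. It was 3.34% (exact binomial 95% interval 2.98% to 3.73%) in the control, 7.41% (6.84% to 8.02%) with 2DG, 5.997% (5.52% to 6.501%) with 2FF, 7.83% (7.28% to 8.41%) with aPDL1, 6.52% (6.01% to 7.04%) with 2DG + aPDL1 and 5.77% (5.26% to 6.31%) with 2FF + aPDL1. The control interval lies apart from all others, and those of 2DG and aPDL1 overlap.

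The denominator matters here, since neutrophils fill 29.7% of the control library. Among mononuclear phagocytes (Ace monocytes, classical monocytes and C1q macrophages together) the shares were 32.1% (29.2% to 35.2%), 41.5% (38.9% to 44.1%), 35.4% (33.0% to 37.8%), 43.3% (40.8% to 45.7%), 31.5% (29.4% to 33.7%) and 29.1% (26.9% to 31.5%). On this scale the control lay within the range of the others, and the 2DG and aPDL1 libraries were the highest. With only the Ace monocytes of the stricter gate, an alternative chosen after seeing the data, the shares were 24.35% (21.5% to 27.4%), 38.7% (36.0% to 41.4%), 31.1% (28.8% to 33.6%), 40.6% (38.1% to 43.1%), 28.6% (26.5% to 30.7%) and 26.7% (24.4% to 29.0%). The control was then the lowest here too, with an interval that overlapped those of the pair of combined treatments. The number of Ace monocytes per classical monocyte was 2.55, 3.32, 3.04, 2.23, 1.41 and 1.29 with the first gate and 1.73, 2.95, 2.505, 1.997, 1.23 and 1.14 with the stricter one, lowest in the combined treatments by both. Whether these are differences of treatment or of single mice cannot be told apart with 1 mouse each.

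**Figure D3:**
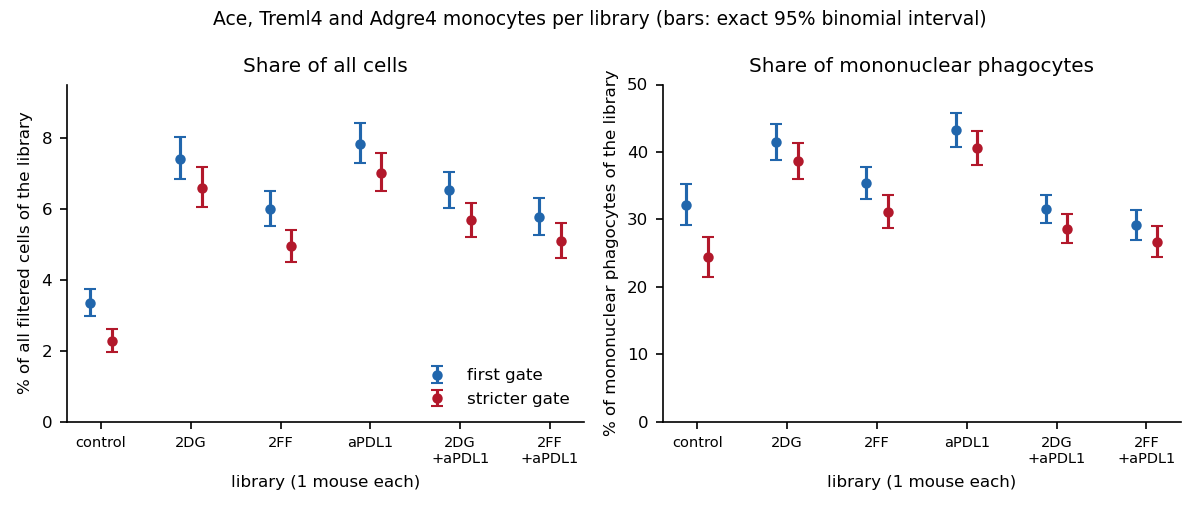
Ace monocytes as a percentage of all filtered cells (left) and of mononuclear phagocytes (right) in the 6 libraries, for the first gate (blue) and the stricter gate (red), with exact 95% binomial intervals. The control is lowest on the left by both gates (3.34% with the first), and on the right it is within the range of the others with the first gate (32.1%) and lowest with the stricter one (24.35%).

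Expression was compared between libraries in genes with at least 50 UMIs in the pair, as the log2 ratio of CPM + 5, which understates the change of low genes, and a gene past 1 on this scale differs 2-fold or more. Over control, 226 of 8096 genes were 2-fold higher and 364 lower with 2DG, 250 and 344 of 8015 with 2FF, and 297 and 343 of 8359 with aPDL1. The shares were 2.79%, 3.12% and 3.55% higher and 4.50%, 4.29% and 4.10% lower. With the stricter gate, 190 (2.50%), 234 (3.16%) and 239 (3.03%) genes were higher and 218 (2.87%), 200 (2.70%) and 182 (2.31%) lower. Over aPDL1, 35 genes were higher and 42 lower of 8588 with 2DG + aPDL1 (0.408% and 0.489%), and 37 and 25 of 8528 with 2FF + aPDL1 (0.434% and 0.293%). The stricter gate gave 0.361% and 0.494% for the first and 0.412% and 0.279% for the second. The median over all genes was 0.10, 0.09 and 0.12 over control and -0.05 and -0.07 over aPDL1.

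MHC class II genes, which present antigen to CD4 T cells, were higher in the 3 singly treated mice than in the control. All 8 or 9 genes tested were above 0 in each comparison, 5, 6 and 6 of them 2-fold or more, with median log2 ratios of 1.31 with 2DG, 1.65 with 2FF and 1.43 with aPDL1. With the stricter gate the medians were 0.98, 1.41 and 1.22. Over aPDL1 alone the same genes were lower, with medians of -0.64 in 2DG + aPDL1, where all 9 were below 0, and -0.33 in 2FF + aPDL1, where 8 of 9 were. Markers of type 2 dendritic cells had medians on the same sides in these cells. Over control they were 0.52 with 2DG (2 genes tested, 1 below 0), 0.99 with 2FF (4 tested) and 1.48 with aPDL1 (5 tested). Over aPDL1 they were -0.42 with 2DG + aPDL1 and -0.45 with 2FF + aPDL1 (6 tested in each). With the stricter gate these medians over control were 1.98 with 2DG (1 gene tested), 1.34 with 2FF (3 tested) and 1.23 with aPDL1 (5 tested). Over aPDL1 the stricter gate gave -0.67 with 2DG + aPDL1 and -0.52 with 2FF + aPDL1. The part of dendritic cells in the class II differences was not tested.

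Cd74, the invariant chain, was at 1437, 3380, 4420, 3866, 2516 and 3067 CPM and Ciita, the master regulator of class II genes, at 35.4, 100.5, 124.4, 121.5, 63.0 and 82.5 CPM. For both, the control was lowest, the 3 single treatments highest and the combined treatments between them. In classical monocytes the list's medians over control were 1.66, 1.26 and 1.74, in C1q macrophages 0.67, 0.72 and 0.73, and in T cells, which should lack these transcripts, 0.07, 0.63 and 0.42. In 2DG + aPDL1 over aPDL1 the medians were 0.27 in classical monocytes, -0.05 in macrophages and -0.33 in T cells, and in 2FF + aPDL1 over aPDL1 -0.67, -0.48 and -0.70. The lower values with 2FF + aPDL1 were thus seen in all 4 cell groups, and the part of free RNA in them was not tested.

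Genes induced by interferon-γ were also higher than in the control, with medians of 0.66, 1.47 and 0.91 over 17 genes, of which 6, 13 and 8 were 2-fold higher, and 0.71, 1.34 and 0.99 with the stricter gate. The medians of the list over control were 0.91, 1.35 and 1.13 in classical monocytes, 0.84, 1.36 and 1.10 in C1q macrophages and 0.01, 0.06 and 0.10 in T cells. Cxcl9 was at 42.0, 69.4, 129.4, 261.7, 200.1 and 158.5 CPM, highest with aPDL1, and was detected in 5.61% to 13.8% of the cells against 3.02% to 7.72% of T cells. Over aPDL1 the medians of the list were 0.20 and 0.34.

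Iigp1, a GTPase induced by interferon-γ, was among the 5 largest differences of 2FF over control at a log2 ratio of 2.73, at 2.95 and 47.7 CPM. It was at 13.03, 30.7, 28.5 and 35.9 CPM in the remaining libraries, and at 30.7 to 60.9 CPM in T cells. Nos2, the inducible nitric oxide synthase, went the other way, at 109.1 CPM in the control and 6.91 to 51.1 CPM in the others. Cd274 was at 618.2, 468.3, 775.7, 485.4, 567.2 and 784.7 CPM. Its log2 ratios over control of -0.40 with 2DG and -0.35 with aPDL1 became 0.17 and 0.21 with the stricter gate, so no direction is read for them.

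The type I interferon list had medians of 0.40, 0.92 and 0.57 over control (0.61, 1.25 and 0.59 with the stricter gate) and 0.21 and 0.60 over aPDL1. All 17 genes tested in 2DG + aPDL1 and 17 of 18 in 2FF + aPDL1 were above 0 over aPDL1. Ifit1, an RNA-binding effector, was among the 5 largest differences of 2FF + aPDL1 over aPDL1 (1.63), at 33.5, 18.4, 36.7, 14.2, 17.3 and 54.4 CPM by library. Isg15 was at its highest, 220.7 CPM, with 2FF. Over control, the list's medians were 0.61, 0.73 and 0.87 in classical monocytes, 0.555, 0.77 and 0.48 in C1q macrophages and -0.18, 0.09 and -0.08 in T cells. Over aPDL1 they were 0.49 and 0.55 in classical monocytes, 0.49 and 0.71 in macrophages and 0.08 and 0.29 in T cells.

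Glycolysis genes were lower than in the control, with medians of -0.90, -0.65 and -0.70, 15 of 16 below 0 in each comparison, and -0.79, -0.57 and -0.61 with the stricter gate. Slc2a1, the glucose transporter GLUT1, was at 327.2, 117.3, 126.1, 125.1, 104.6 and 139.7 CPM, and Gapdh at 1053, 557.4, 748.1, 611.2, 502.9 and 653.4 CPM. The control was the highest for both, and the pair of 2DG libraries were the lowest. Eno3 was the one gene above 0, at log2 ratios of 2.12, 2.02 and 1.54. In C1q macrophages the list's medians over control were 0.32, 0.59 and 0.53, in classical monocytes -0.38, -0.44 and -0.28, and in T cells -0.28, -0.14 and -0.01. Over aPDL1, 15 of 16 genes were below 0 with 2DG + aPDL1 (median -0.27) and 8 of 16 with 2FF + aPDL1 (median 0.03). With 2DG + aPDL1 the other cells moved likewise, at -0.23 in classical monocytes, -0.24 in macrophages and -0.34 in T cells. Over control, tumor macrophage markers were lower as well, with medians of -1.91, -0.88 and -1.66 (-1.88, -0.92 and -1.50 with the stricter gate). In each comparison 4 of 5 tested genes were below 0. That list holds Spp1 and Gpnmb, whose limit left 318 of 430 control cells. The same limit left 658 of 679 cells with 2DG, 665 of 682 with 2FF and 784 of 816 with aPDL1. The part of such macrophages in the glycolysis differences was not tested.

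**Figure D4:**
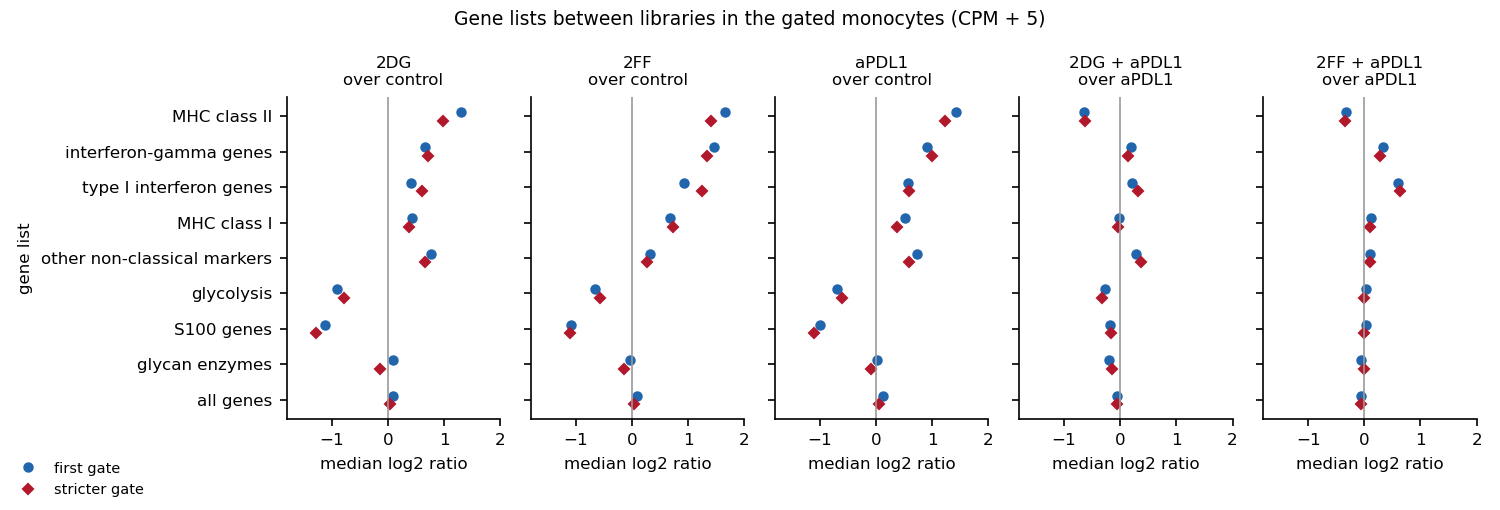
Median log2 ratio of CPM + 5 in Ace monocytes for 8 gene lists and all genes in the 5 comparisons, for the first gate (circles) and the stricter gate (diamonds). MHC class II genes lie at 1.31, 1.65 and 1.43 over control and at -0.64 and -0.33 over aPDL1, while all genes stay between -0.07 and 0.12.

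Other genes were highest in the control mouse. Cxcl3, a neutrophil chemoattractant, was at 778.5, 11.2, 41.1, 8.25, 37.5 and 28.1 CPM, and Hilpda, a lipid-droplet protein induced by hypoxia, at 402.7, 20.7, 47.2, 25.9, 34.8 and 42.4 CPM. Ero1l, an oxidase of the endoplasmic reticulum, was at 467.9 CPM in the control and 36.4 to 66.5 in the others. With the stricter gate the log2 ratios of Hilpda over control were -3.17 with 2DG and -2.47 with aPDL1, in place of -3.98 and -3.72. Dach1, the decoy receptor gene Tnfrsf23 and the neutrophil transcripts Cstdc4, Wfdc21 and Retnlg made up the rest of the 5 lowest in these comparisons, with ratios from -3.51 to -4.27. With the stricter gate Cxcl3 was at -5.01, -3.88 and -3.97 in place of -5.60, -4.09 and -5.89, Ero1l at -2.36 with 2DG in place of -3.51, Dach1 at -3.57, -3.82 and -3.22, and Cstdc4 at -3.32 with 2FF and -2.48 with aPDL1. Tnfrsf23, Wfdc21 and Retnlg had too few UMIs there for a ratio. These transcripts were also high outside the Ace monocytes of the control mouse. In its T cells, Hilpda was detected in 31.2% of cells at 171.3 CPM, against 22.2 to 47.2 CPM in the T cells of the others, and the T-cell log2 ratio of Cxcl3 with 2DG was -5.31. The part of free RNA in these differences was not tested.

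Among the 5 genes furthest above the control, Tldc2, Tcof1 and Fam71a came up in 2 of the 3 comparisons. Tldc2 was at 12.9, 100.8, 102.9, 77.2, 148.1 and 63.1 CPM, and Tcof1, a factor of ribosome production, at 59.7, 316.4, 251.6, 361.4, 253.0 and 209.6 CPM. Their log2 ratios with the stricter gate were 2.52 for Tldc2 and 2.06 for Tcof1 with 2DG. With 2DG the ratios were 1.69 and 2.02 in classical monocytes, 1.41 and 2.15 in C1q macrophages, and 0.27 and 0.45 in T cells. Zbtb16 (PLZF), a transcription factor of innate lymphocytes, was at 37.2, 153.4, 127.7, 246.8, 324.4 and 200.6 CPM. Stxbp6, a regulator of membrane fusion, was at 19.9, 99.98, 99.0, 174.6, 222.8 and 157.1 CPM. With aPDL1 the ratios of Zbtb16 were 2.58 in Ace monocytes, 2.62 in classical monocytes, -0.71 in macrophages and 0.37 in T cells, and those of Stxbp6 2.85, 1.89, -0.36 and 1.03. Fam71a (2.23 and 2.78), Soga1 (2.23) and Ly6i (2.21) were the others with 2DG or aPDL1. Dpp4, a surface peptidase, was at 19.9, 104.5, 114.5, 71.7, 67.4 and 71.8 CPM, with Gm38115 (2.25) and Gm4951 (2.22) beside it in 2FF over control.

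**Figure D5:**
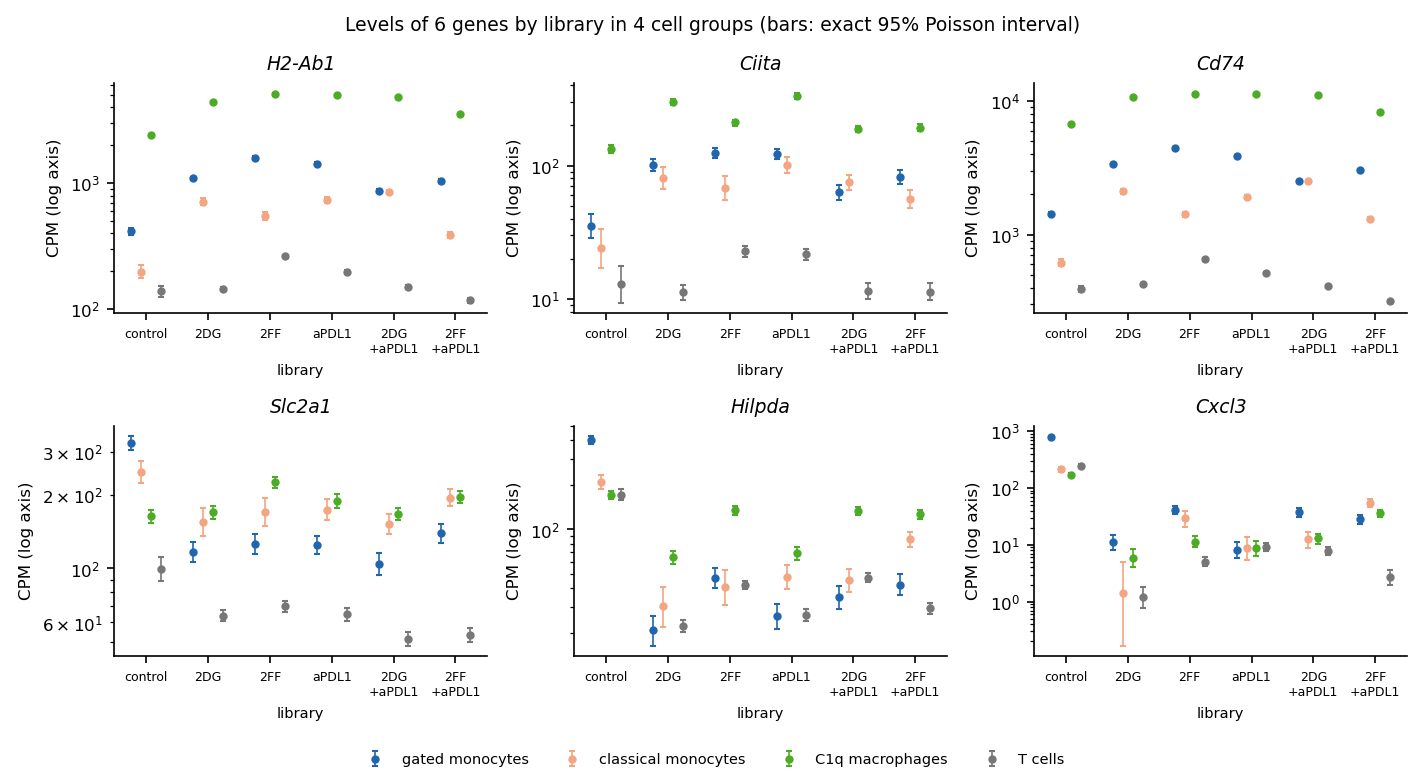
CPM (log axis) of H2-Ab1, Ciita, Cd74, Slc2a1, Hilpda and Cxcl3 by library in Ace monocytes, classical monocytes, C1q macrophages and T cells, with exact 95% Poisson intervals. In Ace monocytes the control is the lowest of the 6 libraries for the first 3 genes (1437 CPM for Cd74) and the highest for the last 3 (402.7 CPM for Hilpda).

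Few genes differed 2-fold between 2DG + aPDL1 and aPDL1 alone. Tnip3, an inhibitor of NF-κB signalling, was at 92.1, 96.3, 201.4, 139.8, 402.2 and 255.6 CPM, and Ccl4, an inflammatory chemokine, at 469.8, 247.6, 611.8, 234.4, 657.3 and 547.1 CPM. Both were higher in the combined treatments than with aPDL1 alone, Tnip3 at 1.49 and Ccl4 at 1.47 with 2DG, as were Slc7a11 (1.46) and Zc3hav1l (1.55). The ratios of Tnip3 were 1.92 in classical monocytes, 0.72 in macrophages and 0.92 in T cells, and those of Ccl4 1.705, 1.58 and 0.99. Cxcl3 (1.68) rests on 12 and 9 cells with a UMI. On the lower side Slc15a2, a peptide transporter, was at 74.1, 31.9, 46.6, 72.9, 16.2 and 17.4 CPM, and in T cells at 61.9, 15.2, 29.7, 33.6, 6.46 and 7.18 CPM, so that it moved by library in cells of another lineage as well. Hspa1a (-1.87) and Hspa1b (-2.37), near-identical stress genes whose reads cannot be told apart, Retnlg (-2.08) and Lcn2 (-2.03) were the others, and Hspa1b moved likewise in T cells (-2.01). Retnlg rests on 15 and 9 cells with a UMI and Lcn2 on 14 and 13, and both, transcripts of neutrophils, had too few UMIs for a ratio with the stricter gate.

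With 2FF + aPDL1, Cd38, an NAD-consuming surface enzyme, was at 140.0, 61.2, 165.5, 46.1, 112.8 and 159.4 CPM, a log2 ratio of 1.69 over aPDL1, and Ptgs2, the inducible cyclooxygenase, was higher by 1.65. The ratios of Cd38 were 2.07 in classical monocytes, 1.16 in macrophages and -0.09 in T cells, and those of Ptgs2 1.175, 1.58 and 0.25. H2-T23, a class Ib gene with close relatives in the genome, was higher by 1.67 in the Ace monocytes and by 1.58 in T cells. Nos2 (1.89) rests on 21 and 19 cells with a UMI. Irf4 (-1.79), Ccl17 (-1.60), Mgl2 (-1.55) and Fam71a (-1.38) were lower beside Slc15a2 (-1.798). Ccl17 and Mgl2 are markers of type 2 dendritic cells and were seen in 12 and 17 of the 689 aPDL1 cells. Genes of glycan synthesis had medians of 0.08, -0.04 and 0.02 over control and -0.14, -0.15 and -0.08 with the stricter gate, with no gene 2-fold changed, and no direction is read for 2DG and aPDL1. Over aPDL1 they had medians of -0.19 with 2DG + aPDL1, where 9 of 13 were below 0 and 1 was 2-fold lower, and of -0.06 with 2FF + aPDL1 (-0.14 and -0.01 with the stricter gate). Fut8, the core fucosyltransferase, was at 73.3, 66.2, 71.2, 66.7, 74.7 and 64.8 CPM.

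Markers of the non-classical state were also lower in the control mouse's cells. The 24 further markers had medians of 0.76, 0.32 and 0.72 over control, 0.67, 0.27 and 0.58 with the stricter gate, and 0.27 and 0.10 over aPDL1. S100 genes had medians of -1.13, -1.08 and -0.997, all 6 below 0 in each (-1.28, -1.10 and -1.11 with the stricter gate). The 6 include S100a8 and S100a9, which the first gate does not limit and the stricter gate limits to 20 UMIs. Classical monocyte markers had medians of -0.72, -0.69 and -0.75 (-0.80, -0.76 and -0.90 with the stricter gate), with F13a1 and Vcan among those higher in the control. Their list of 14, of which 13 were tested in each comparison, holds Ly6c2, which the gate limits to 2 UMIs. Gate genes were not left out of the lists here, and the part of Ly6c2 in these medians was not tested. Vcan was at 448.4, 85.1, 133.5, 99.45, 96.1 and 116.2 CPM, and in T cells at 23.9 CPM in the control and 5.80 to 11.1 CPM in the others. Over control, the list of classical markers had medians of -0.80, -0.83 and -0.60 in T cells, which should lack these transcripts, -0.20, 0.12 and -0.31 in classical monocytes, and -0.25, -0.17 and -0.18 in macrophages. The S100 list had -0.09, 0.01 and -0.06 in T cells, -0.84, -0.56 and -0.89 in classical monocytes and -0.07, -0.78 and -0.19 in macrophages. The further non-classical markers had -0.02, -0.06 and 0.11 in T cells, 0.40, 0.32 and 0.33 in classical monocytes and -0.25, -0.37 and -0.52 in macrophages. The part of free RNA in these differences was not tested.

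Among the cells of 1 library, the genes that varied most beyond counting noise were ranked over 2000 genes and averaged over libraries. The first 10 were S100a8, S100a9, Ccl3, Il1r2, Acod1, Cxcl10, AA467197, Hmox1, Isg15 and Fn1. S100a8 was detected in 50.8% of control members and in 5.66% to 9.40% of the others, with up to 842 UMIs in 1 cell, and in T cells in 27.5% and in 1.19% to 3.91%. Cxcl10 was detected in 9.57%, 17.5%, 32.2%, 22.5%, 30.3% and 32.7% of members and Isg15 in 24.1%, 25.4%, 39.96%, 23.2%, 27.6% and 34.7%, against 15.8% to 23.4% of T cells for Isg15. Cxcl10 was thus detected in a minority of Ace monocytes in each library, with up to 105 UMIs in 1 cell, against 7.05% to 11.2% of T cells. The control share of 9.57% lay within this T-cell range, and those of the other libraries lay above it.

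Markers of other cell types were measured in the same cells. The gate allows no UMI of Cd3d, Cd3e and Cd3g, among the T-cell markers, or of Cd79a, among the B-cell markers. These genes are at 0 by that choice and add nothing to the sums. The summed level of 7 T-cell markers was 0.737 to 13.2 CPM and of 5 epithelial tumor markers 1.10 to 24.8 CPM. That of 5 fibroblast markers was at most 1.47 CPM, and the 4 basophil and mast cell markers were at 0 in all 6 libraries. Natural killer markers reached 64.3 CPM with 2FF + aPDL1, of which Gzma was 79.0%. The 5 B-cell markers summed to 13.6 CPM in the control and 38.2 to 61.7 CPM elsewhere, of which Ighm was 87.0% to 92.7%, and the 6 endothelial markers to 8.28 to 16.2 CPM, mostly Vwf. The 7 markers of type 2 dendritic cells, Dpp4 among them, summed to 60.4 CPM in the control and 119.9 to 166.1 CPM elsewhere. Dpp4 was 32.93% of this sum in the control and 43.65% to 74.57% elsewhere. The 9 neutrophil markers summed to 9441 CPM in the control and 821.0 to 1550 CPM elsewhere, S100a9 being the most abundant.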

How the data were processed

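Single cells of 6 mice were sequenced with 10x Genomics 3′ chemistry. Values are UMI counts as deposited by the authors, not normalized, for 32285 genes in 57078 barcodes called as cells. The file headers name Cell Ranger 7.0.0 and the submitters' processing notes Cell Ranger 3.1.0 with mm10. The filters of the study's methods on genes and mitochondrial content had not been applied and were applied here. Library totals were 61859753 to 73885214 UMIs, and 21680901 UMIs fell in the cells described.

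The members, gene lists and comparisons were chosen with earlier results of these data known. Counts were summed per cell group and library. Cell groups were compared with edgeR 4.0.16 (R 4.3.3; quasi-likelihood, TMM, filterByExpr, library as block) over 12 sums, tested on simulated data. Cells of both groups in a block came from the same mouse, so the pairing is by design, and each mouse also had its own treatment. Gate genes were left out of these tests, but not of the gene lists compared between treatments. Between treatments, with 1 library each, values are log2 ratios of CPM + 5 with exact 95% Poisson intervals for levels, and no p-value was computed. Named genes were the 15 with the largest rise and fall against each cell group. These had an edgeR adjusted p under 0.05, at least 50 CPM and the same direction in every library. Between treatments they were the 5 highest and lowest per pair with at least 10 cells holding a UMI in the higher library. Left out were genes whose CPM, where they were higher, was under 20% of that in all other cells. Mitochondrial, ribosomal protein, antigen receptor and haemoglobin genes and Xist were left out too. A few members of lists are named beside the genes so chosen. Of 370 list genes 366 were found on 1 row each. Doublets were scored against simulated ones (145 of the 3154 members were marked) and removed only in an alternative. Alternatives were DESeq2 1.42.0, other scalings, gates and filters, thinning to 2000 UMIs and leaving out each library. Some of the genes so chosen are not reported here.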

Additional observations from a re-analysis of the deposited data

Results flagged for a closer look

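In comparisons of cell groups within libraries, 8 of the 60 differences of named genes had 1 library far from the other 5, in each case the control, by a rule that marks about 1 in 20 groups by chance. The 8 genes come from the same 6 libraries and are not independent. Against classical monocytes the control had a log2 ratio of CPM + 5 of 5.83 for G0s2 and 5.74 for Dach1. Against C1q macrophages it had 2.46 for Cd300e, 2.40 for Vegfc, 1.89 for Hpgd, 1.70 for Eno3, -5.42 for Fcrls and -5.62 for Vcam1.

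Of 8 lists compared in this way, 2 had medians on opposite sides of 0 with and without anti-PD-L1, each beyond 0.1. MHC class II genes had median log2 ratios of 1.31 in 2DG over control and -0.64 in 2DG + aPDL1 over aPDL1, and of 1.65 and -0.33 for 2FF. Classical monocyte markers had -0.69 in 2FF over control and 0.18 in 2FF + aPDL1 over aPDL1. The second value rests on all 14 genes of the list, with Ly6c2 among them, which the gate limits to 2 UMIs. Outside those 8, the chemokine and cytokine list, added after its values were seen, had -0.78 (-0.39 with the stricter gate) in 2DG over control and 0.27 in 2DG + aPDL1 over aPDL1, and -0.72 (-0.43) and 0.27 for 2FF. In T cells its medians were -1.19 and 0.16 for 2DG and -0.27 and 0.16 for 2FF. Other lists outside the 8 changed side as well. Among them, type 2 dendritic markers had 0.52 and -0.42 for 2DG, and 0.99 and -0.45 for 2FF. For 2FF, tumor macrophage markers had -0.88 and 0.55 and complement genes -0.13 (-0.41 with the stricter gate) and 0.20. With 1 mouse per treatment the difference between these pairs was not tested.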

How the results depend on the processing

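Against classical monocytes, leaving out 1 library at a time gave 1791 to 2071 genes higher and 1768 to 2211 lower, and against C1q macrophages 2844 to 3414 and 2900 to 3705. Thinning every cell to 2000 UMIs, which left fewer genes to test, gave 1340 and 1367 and, against macrophages, 2096 and 2099. Without the replicate block 1287 genes were lower than in classical monocytes (2139 with it) and 1415 higher, and against macrophages 3030 and 2820. Of the 15 largest rises and falls against each cell group Mmp8 alone lost its call there (edgeR adjusted p = 0.116), and of the list genes named against classical monocytes Bax, Cd274, Cebpd, Ciita, Ctss, Cxcl9, Fcgr2b, H2-DMb2, Irf1 and Vsir also lost it. DESeq2 gave 1563 and 1550 against classical monocytes. The 3 left-out markers were recomputed in 1 alternative only, with at least 3 UMIs of the other 2 genes, and kept direction and call there.

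The share per library, in the order control, 2DG, 2FF, aPDL1, 2DG + aPDL1 and 2FF + aPDL1, was 2.314%, 6.102%, 4.674%, 6.34%, 5.318% and 4.663% with at least 3 trio UMIs, 2.083%, 5.855%, 4.587%, 5.988%, 5.207% and 4.471% with at least 2 of the 3 genes, 2.27%, 6.595%, 4.945%, 7.011%, 5.673% and 5.099% with the stricter gate, and 1.719%, 5.73%, 3.798%, 6.15%, 4.887% and 3.909% when cells were thinned before gating. Of mononuclear phagocytes it was 32.1%, 41.5%, 35.4%, 43.3%, 31.5% and 29.1%, and, by alternatives chosen after seeing the data, 24.35%, 38.7%, 31.1%, 40.6%, 28.6% and 26.7% with the stricter gate and 24.7%, 36.8%, 29.9%, 38.2%, 27.3% and 24.95% with 3 trio UMIs. The control was lowest in each of these series except among phagocytes with the first gate.

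Between treatments, a pseudocount of 1 CPM gave 371 genes higher for 2DG over control, 462 for aPDL1 over control, 62 higher and 98 lower for 2DG + aPDL1 over aPDL1, and 60 and 81 for 2FF + aPDL1 over aPDL1. Lower over control were 218 (2DG), 200 (2FF) and 182 (aPDL1) genes with the stricter gate, and 229 (2DG) and 228 (2FF) with thinning. Of the medians of 8 lists followed through these alternatives, 6 near 0 changed sign. In 2DG + aPDL1 over aPDL1 they were MHC class I genes centred on the median gene (0.03626) and classical markers with 3 trio UMIs (-0.04378). In 2FF + aPDL1 over aPDL1 they were glycolysis (-0.01148) and S100 genes (-0.21) with 3 trio UMIs, S100 genes with the stricter gate (-0.006591) and non-classical markers with thinning (-0.0009231). The cause was not tested for any of these changes.

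The precision of treatment comparisons is limited by 1 mouse per treatment and by 303 to 689 cells per library. P-values between cell groups rest on how the difference within a mouse varied among mice under different treatments.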
